A study of Saccharomyces cerevisiae with 4 samples.

Results

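Yeast cells that lack VPS35 and carried a galactose-inducible plasmid for TIF4631 were compared with cells of the same deletion that carried the control plasmid. The comparison uses 2 of the 4 ribosome profiling libraries of the study, 1 per plasmid, and covers the 4997 open reading frames (ORFs), of 5441 listed, that had at least 200 counts summed over all 4 libraries. All libraries came from whole-cell lysates of Y7092, a haploid laboratory strain of Saccharomyces cerevisiae of the alpha mating type that is used for systematic crosses, lacks URA3, LEU2 and MET17, and carries a mutant allele of HIS3. Both libraries of the comparison carry vps35::natMX, a replacement of the VPS35 gene by a drug resistance cassette, and both keep the chromosomal TIF4631 gene. They differ in the plasmid, which is pAG416GAL-TIF4631 in the first and pAG416GAL-ccdB in the control. Both plasmids are of a URA3-marked series with a GAL promoter, and plasmid genes were induced for 2 h in synthetic defined medium during early log phase. The other libraries are the wild type with the control plasmid, and a library labelled wild-type TIF4631, and are used here to show where the pair of interest lies. The study, by its title, asks how VPS35 and EIF4G1, both linked to Parkinson's disease, interact.

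TIF4631 encodes eIF4G1, the large scaffold of the cap-binding complex eIF4F, which joins the cap-binding protein eIF4E, the RNA helicase eIF4A and the poly(A)-binding protein on an mRNA and so helps to recruit the small ribosomal subunit. Vps35 is the core of the retromer, which returns sorting receptors such as Vps10 from endosomes to the Golgi. Ribosome profiling sequences the mRNA fragments that ribosomes shield from nuclease, so a footprint count reflects the amount of an mRNA and the ribosomes on each copy together, and these cannot be told apart here. Counts are given below as scaled CPM (the counts of an ORF set to a common library size), and ratios as log2 of the TIF4631 library over the control library of the deletion strain. Since each group has 1 library, the spread between cultures is unknown and nothing was tested. The 95% intervals in parentheses cover counting error only.

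The labels of the deletion pair held for the deleted and the induced gene. VPS35 (YJL154C) had 2187 counts in the wild-type control, 1974 in the library labelled wild-type TIF4631, 9 in the deletion control and 10 in the deletion library with TIF4631. TIF4631 (YGR162W, chromosome VII, 824059 to 826917, sacCer3) had 8010, 7067, 4948 and 103723 counts in the same order. Only the deletion library with the TIF4631 plasmid was raised, at 6217 CPM against 435 CPM in its control, a 14.3-fold difference and a log2 ratio of 3.84 (3.80 to 3.88). TIF4631 was the ORF with rank 419 by count in the deletion control and rank 10 with the plasmid, and it took 0.635% of the counts of that library against 0.0440%. By RPKM, which divides by ORF length, its rank went from 958 to 106. GTR2, the next ORF on chromosome VII and the only listed neighbour of TIF4631, had 573 and 963 counts, and its ratio was 0.20 (0.05 to 0.35). At 403 CPM, TIF4631 in the library labelled wild-type TIF4631 lay below the 455 CPM of the wild-type control, so no raised level was measured there. Against the wild-type control it held 23 ORFs higher, or 0.46%, and 5 lower, or 0.1%, by the 2-fold rule explained below. It is given for its levels, not as an overexpression library.

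Summed counts were 11240681 in the deletion control and 16341045 in the deletion library with TIF4631, and lay at 17669055 and 18067205 in the other libraries. The median ORF had 552 and 809 counts in the deletion pair. The limit that a count of 0 allows, 3 counts per library, came to 0.264 CPM in the deletion control and 0.180 CPM with TIF4631. The mating type markers matched the strain: the 7 a-specific genes summed to between 6.04 and 13.5 CPM over the 4 libraries and none passed the filter on low counts, whereas the alpha-specific receptor gene STE3 stood at 432 CPM in the deletion control and 411 CPM with TIF4631. STE2, the a-cell receptor gene, had 37, 13, 13 and 92 counts in the order given above.

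The promoters of the genes that the results turn on are shown first. Each window runs from 400 to 101 bases before the start codon, was read from RefSeq's R64 assembly (identical to sacCer3), and is printed 5′ to 3′ on the strand of the gene. In the first 3, capitals mark TGACTC on either strand, the core that the activators Gcn4 and Bas1 bind. They belong to the glycine cleavage genes GCV1 (chrIV:485466-485765, minus strand), GCV2 (chrXIII:637100-637399, plus strand) and GCV3 (chrI:58563-58862, minus strand). In the promoter of HSP12 (chrVI:106856-107155, plus strand), a small membrane-protecting heat shock protein, capitals mark AGGGG on either strand, the stress response element of Msn2 and Msn4. In the promoter of INO1 (chrX:136034-136333, minus strand), the inositol phosphate synthase, they mark CATGTG on either strand, the core of the element of Ino2 and Ino4. A match is a string of letters, not a shown binding site.
GCV1: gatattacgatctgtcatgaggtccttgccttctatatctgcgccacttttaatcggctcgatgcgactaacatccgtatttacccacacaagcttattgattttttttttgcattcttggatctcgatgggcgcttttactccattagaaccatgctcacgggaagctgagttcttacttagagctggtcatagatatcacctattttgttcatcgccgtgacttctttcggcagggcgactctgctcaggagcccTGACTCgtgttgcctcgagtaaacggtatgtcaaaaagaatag
GCV2: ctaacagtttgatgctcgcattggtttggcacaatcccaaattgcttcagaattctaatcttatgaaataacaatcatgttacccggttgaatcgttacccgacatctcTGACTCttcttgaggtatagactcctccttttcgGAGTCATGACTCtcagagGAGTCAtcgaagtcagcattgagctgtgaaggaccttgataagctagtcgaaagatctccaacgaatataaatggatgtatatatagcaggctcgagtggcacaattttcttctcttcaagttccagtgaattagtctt
GCV3: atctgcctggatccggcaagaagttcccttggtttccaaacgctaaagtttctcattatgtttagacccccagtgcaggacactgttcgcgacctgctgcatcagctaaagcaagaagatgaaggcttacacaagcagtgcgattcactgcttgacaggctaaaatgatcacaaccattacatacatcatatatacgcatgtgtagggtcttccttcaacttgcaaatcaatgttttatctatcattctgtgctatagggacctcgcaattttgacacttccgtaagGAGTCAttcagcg
HSP12: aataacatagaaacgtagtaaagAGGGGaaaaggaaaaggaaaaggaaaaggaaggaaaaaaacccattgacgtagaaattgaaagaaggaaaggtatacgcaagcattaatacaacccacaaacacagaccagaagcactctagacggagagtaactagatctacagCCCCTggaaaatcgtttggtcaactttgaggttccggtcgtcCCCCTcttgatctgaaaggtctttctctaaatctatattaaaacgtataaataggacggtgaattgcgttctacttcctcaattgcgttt
INO1: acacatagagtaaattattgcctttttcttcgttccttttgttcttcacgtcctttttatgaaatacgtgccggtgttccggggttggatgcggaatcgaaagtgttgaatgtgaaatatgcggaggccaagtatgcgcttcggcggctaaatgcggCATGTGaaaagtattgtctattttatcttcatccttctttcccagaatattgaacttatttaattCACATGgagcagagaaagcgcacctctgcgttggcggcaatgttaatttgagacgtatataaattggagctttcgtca

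The GCV2 window held 4 copies of TGACTC, some of them back to back. GCV1 held 1 copy, 143 bases before its start codon, and GCV3 held 1 copy, 113 bases before its own. HSP12 held 3 copies of AGGGG and INO1 held 2 of CATGTG. Of all 4987 kept ORFs with a window, 9.184% held TGACTC, 24.06% held AGGGG and 8.983% held CATGTG.

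Most ORFs differed little between the deletion libraries. The median log2 ratio was 0.01, the 5th and 95th percentiles were -0.59 and 0.51, and 91.4% of ORFs lay within 1.5-fold. Their robust SD was 0.303, the median SD from counting alone 0.0761, and 1505 ORFs lay above and 1565 below 0 beyond counting error. An ORF was counted as higher or lower by the 2-fold rule where its ratio was at least 2-fold with an interval that excluded 0. By this rule 53 ORFs were higher, which is 1.06% of those compared, and 28 were lower, which is 0.56%. The filter sums counts over all 4 libraries, so an ORF can pass it through the library where it is high. Among the 53, CHA1, AQR1, CTA1 and KDX1, described below, passed it only through the TIF4631 library. A smaller rule of at least 1.5-fold gave 180 higher ORFs, or 3.6%, and 247 lower ORFs, or 4.94%. These shares of all ORFs are the ones to set beside each list count given below. The 53 higher ORFs, TIF4631 included, took 0.569% of the counts of the deletion control and 2.04% with TIF4631, and the 28 lower ORFs 1.17% and 0.472%.

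**Figure D1:**
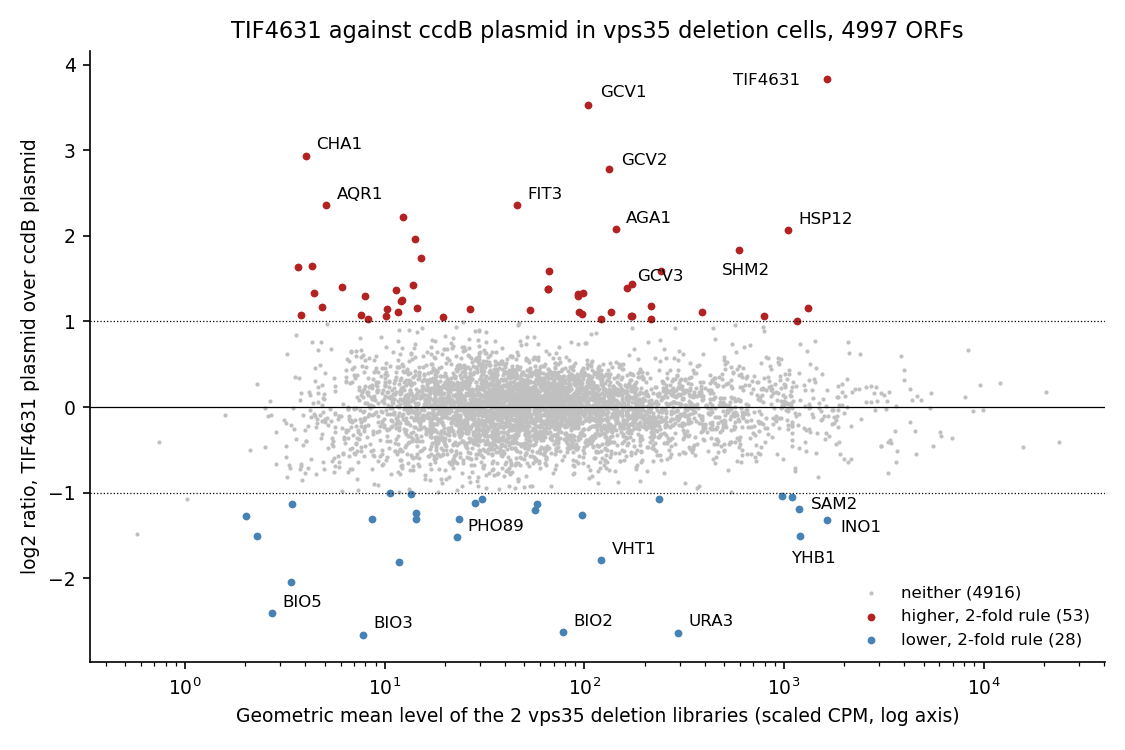
Log2 ratio of each of 4997 ORFs in the deletion pair (y axis, TIF4631 plasmid over ccdB plasmid) against its geometric mean level in both libraries (x axis, scaled CPM on a log axis); red points are the 53 ORFs higher and blue points the 28 lower by the 2-fold rule, and dotted lines mark 2-fold. TIF4631, GCV1 and GCV2 lie farthest above the cloud among ORFs over 100 CPM, and URA3 and BIO2 far below it.

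The levels in the wild-type libraries show where the deletion pair lies for these ORFs, which were chosen by their ratio within that pair, so that a high or low rank of the TIF4631 library is partly built in. It had the highest level of the 4 libraries for 48 of the 53 higher ORFs, and was at least 2-fold above all 3 others for 36 of them. It had the lowest level for 26 of the 28 lower ORFs, and was at least 2-fold below all 3 others for 21. The deletion control was the lowest of 4 for 16 of the 53 higher ORFs, among them the iron gene FIT3. Over all 4997 ORFs kept, the deletion control was the lowest for 16.87%. The TIF4631 library was the highest of 4 for 37.68% of the 4997 and the lowest for 36.94%. It was at least 2-fold above all 3 others for 36 of the 4997 and at least 2-fold below them for 23.

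Glycine cleavage and one-carbon metabolism held the ORF with the largest ratio after TIF4631 itself. The glycine cleavage system is a mitochondrial enzyme complex that breaks glycine down to carbon dioxide, ammonia and a one-carbon unit on tetrahydrofolate, and serine hydroxymethyltransferases link that unit to serine. GCV1, its aminomethyltransferase (YDR019C, chromosome IV, 484163 to 485365), had 23.4 CPM in the wild-type control, 21.5 CPM in the library labelled wild-type TIF4631, 30.5 CPM in the deletion control and 352 CPM in the deletion library with TIF4631. The other 3 libraries lay close together and this one far above them, at a log2 ratio of 3.53 (3.37 to 3.69). GCV2, the glycine decarboxylase (YMR189W, chromosome XIII, 637500 to 640604), had 30.1, 22.5, 50.6 and 348 CPM in that order, a log2 ratio of 2.78 (2.66 to 2.91). SHM2, the cytosolic serine hydroxymethyltransferase (YLR058C), had 289.7, 334, 314 and 1125 CPM, a log2 ratio of 1.84 (1.79 to 1.89). Here too a single library stood above 3 similar ones.

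The remaining members of the list are named after their values were seen. GCV3, the lipoyl carrier protein of the complex, had 76.0, 70.8, 100.8 and 265 CPM in the same order and a log2 ratio of 1.39. LPD1, the lipoamide dehydrogenase that the complex shares with pyruvate dehydrogenase and other enzymes, lay on the other side at -0.45 (-0.48 to -0.42). Per ORF length, the deposited RPKM of the deletion control was 26.0 for GCV1, 16.6 for GCV2, 205 for GCV3 and 870 for LPD1, and with TIF4631 it was 302, 115, 544 and 642. Per length, the aminomethyltransferase and the decarboxylase were thus far below GCV3 and LPD1 in the control, and the 4 levels lay closer together in the TIF4631 library. The mitochondrial serine hydroxymethyltransferase SHM1, which acts in parallel to SHM2, was lower, at 432, 371, 434 and 234 CPM and a log2 ratio of -0.89 (-0.95 to -0.83). AGX1, which makes glycine from glyoxylate, was lower by the 2-fold rule, at 131, 186, 151 and 62.9 CPM and -1.26 (-1.37 to -1.15). GLY1, the threonine aldolase that makes glycine from threonine, stood at 0.34 (0.30 to 0.39).

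Of the 15 genes on this list 4 were higher and 1 was lower by the 2-fold rule, and 4 and 3 by the 1.5-fold rule. The list median was -0.12, so the 4 higher genes stood apart from the rest of their list. MET13, a methylenetetrahydrofolate reductase, was the remaining lower gene at -0.77. The trifunctional enzymes ADE3 and MIS1 stood at -0.12 and -0.16, and the dehydrogenase MTD1 at 0.44. In the promoter windows, TGACTC was found for 9 of the 15 genes, or 60%, against 9.184% of all ORFs kept. It was in 8 of 52 windows of the ORFs higher by the 2-fold rule, or 15.38%, and in 7 of 27 of the lower ones, or 25.93%.

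**Figure D2:**
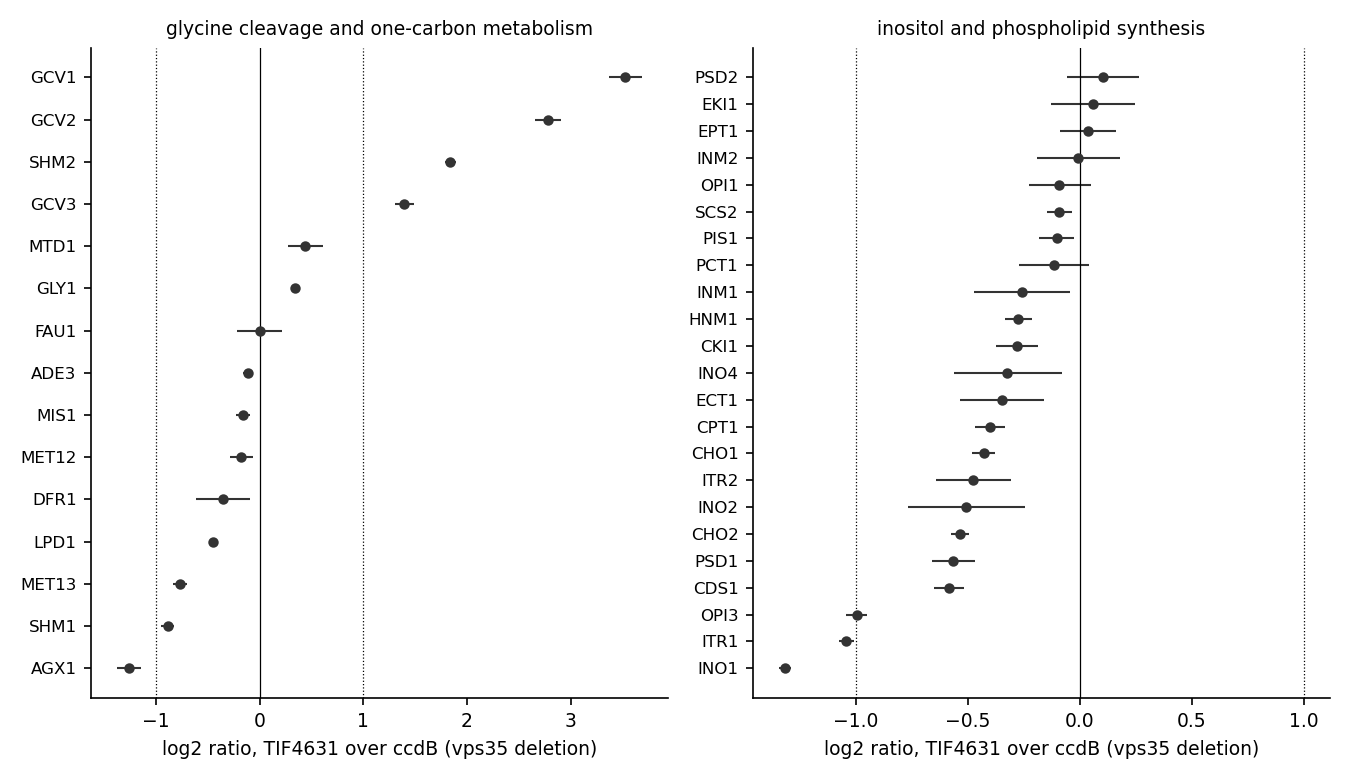
Log2 ratio (x axis, TIF4631 plasmid over ccdB plasmid in the deletion strain) of each gene of 2 lists, with 95% counting intervals as lines and dotted lines at 2-fold. On the left, 4 of 15 glycine and one-carbon genes lie beyond the upper line and AGX1 beyond the lower one; on the right, no gene of inositol and phospholipid synthesis lies above 0 beyond its interval.

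Other amino acid and nucleotide genes were mostly closer to their controls. CHA1, the catabolic serine and threonine deaminase, had 58 counts in the wild-type control, 51 in the library labelled wild-type TIF4631, 16 in the deletion control and 185 in the deletion library with TIF4631. It was thus lowest in the deletion control and highest with TIF4631, at a log2 ratio of 2.94 with a wide interval (2.24 to 3.82), and it was the only gene of 11 for serine and threonine metabolism past either rule. ADE17, a bifunctional enzyme of the last purine steps, had 63.0, 148, 38.2 and 115 CPM in the same order, so that the library labelled wild-type TIF4631 was higher still, and its log2 ratio was 1.59 (1.44 to 1.74). With ADE1 at 0.74 and ADE2 at 0.61 it made up the 3 of 13 purine genes that were higher by the 1.5-fold rule, with 0 lower. TGACTC was in the windows of 10 of these 13 genes.

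Of 48 genes of amino acid synthesis under Gcn4, 6 were higher and 0 lower by the 1.5-fold rule, and the median was 0.22. The histidine genes HIS1 and HIS5 stood at 0.93 and 0.87. TGACTC was in 32 of these 48 windows. HIS3 had 1146, 1277, 747 and 1852 counts, and a log2 ratio of 0.76 (0.63 to 0.88). Among 12 pyrimidine genes FUR4, the uracil permease, stood at 0.89 and URA1, the dihydroorotate dehydrogenase, at 0.72, whereas URA5, an orotate phosphoribosyltransferase named after its value was seen, stood at -0.62.

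URA3, orotidine phosphate decarboxylase and the selectable marker of the plasmids, had 855 CPM in the wild-type control, 884 CPM in the library labelled wild-type TIF4631, 732 CPM in the deletion control and 118 CPM in the deletion library with TIF4631. It was thus lower in the TIF4631 library alone, at a log2 ratio of -2.63 (-2.71 to -2.56) and from 8323 and 1967 counts. Its chromosomal neighbours GEA2, TIM9 and PXP1 lay at 0.06, -0.17 and -0.18. As the marker sits on the plasmid that carries TIF4631, the levels of URA3 and TIF4631 in this library went in opposite directions on what the labels give as the same backbone.

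**Figure D3:**
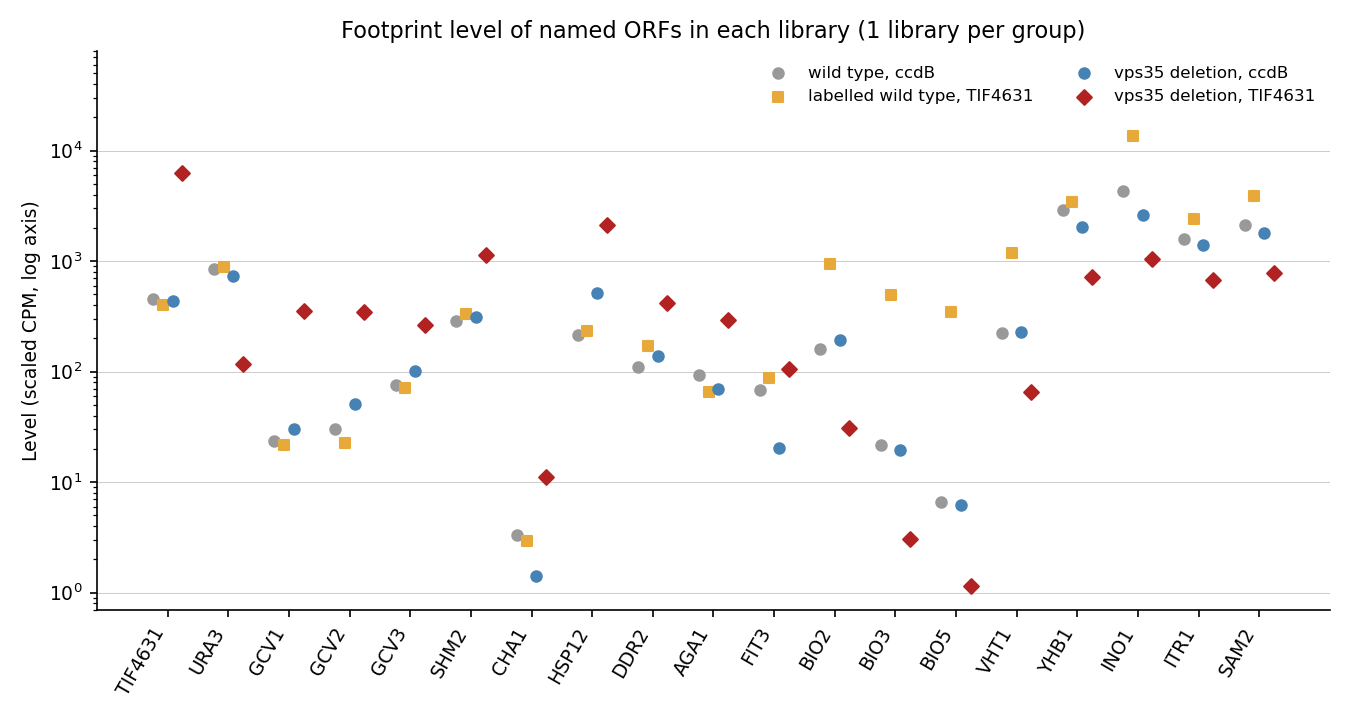
Level of 19 named ORFs (y axis, scaled CPM on a log axis) in each of the 4 libraries, 1 point per library. TIF4631, the glycine genes, HSP12 and AGA1 are highest in the deletion library with TIF4631 (red diamonds), URA3 is lowest there, and the biotin genes and INO1 are lowest there and highest in the library labelled wild-type TIF4631 (yellow squares).

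The measured translation machinery around eIF4G1 stayed near its control levels, with the poly(A)-binding protein as the exception. PAB1 had 1515, 1310, 1469 and 874 CPM in the order wild-type control, library labelled wild-type TIF4631, deletion control and deletion with TIF4631, a log2 ratio of -0.75 (-0.78 to -0.72). TIF4632, the second eIF4G, had 162, 155, 152 and 127 CPM and a log2 ratio of -0.26 (-0.35 to -0.17). CDC33, the cap-binding eIF4E, stood at 0.02 (-0.03 to 0.07), and its repressors CAF20 and EAP1 at -0.25 and 0.00. TIF3, which encodes eIF4B, stood at -0.23, and the helicases DED1 and DBP1 at 0.26 and 0.05. Of these 9 genes, TIF4631 was the only one past the 2-fold rule. They are the measured part of a list of 11, and no gene for eIF4A was among the 9.

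None of 23 further initiation factors passed the 1.5-fold rule, and their ratios ran from -0.23 to 0.49. RLI1, the ribosome recycling ATPase that also acts in initiation, had the largest at 0.49, followed by TIF11, which encodes eIF1A, at 0.28 and GCN3, an eIF2B subunit, at 0.25. Of 15 named elongation and termination factors 10 were measured, and none passed the 1.5-fold rule either. Among these, the elongation factor gene YEF3 stood at -0.36 and its relative NEW1 at 0.32, and no gene for eEF1A or eEF2 was measured. None of 19 cytosolic aminoacyl-tRNA synthetases passed it. Of 26 genes for mRNA decay and granules, EDC1, an activator of decapping, was higher by the 1.5-fold rule at 0.59, and PBP1, which encodes a partner of the poly(A)-binding protein, stood at -0.51.

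Genes for making ribosomes differed by small amounts, most of them in 1 direction. Of 113 ribosome biogenesis genes, 79 lay above and 7 below 0 beyond counting error, and the median was 0.21. The TIF4631 library was the highest of 4 for 87 of them, against 37.68% of all ORFs kept. By the 1.5-fold rule 4 of the 113 were higher, close to the 3.6% of all ORFs kept, and 1 was lower, against 4.94% of all. FAF1 and DHR2, both for the small subunit, were higher at 0.68, and the nucleolin homologue NSR1 was lower at -0.74. In the library labelled wild-type TIF4631 against its own control the median of this list was -0.35. The PAC element GATGAG was in 64.6% of these windows and AAATTTT, the core of the rRNA processing element, in 84.96%, against 18.61% and 25.77% of all ORFs kept. Cytosolic ribosomal proteins, of which 68 of 139 named genes were measured, had a median of 0.12. By the 1.5-fold rule 3 of the 68 were higher, also near 3.6%, RPS25B at 0.73, RPS27A at 0.65 and RPL32 at 0.63. The 68 took 9.04% of the counts of the deletion control and 10.1% with TIF4631.

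General stress genes were the list with the most members higher by the 2-fold rule. HSP12 had 214 CPM in the wild-type control, 235 CPM in the library labelled wild-type TIF4631, 511 CPM in the deletion control and 2140 CPM in the deletion library with TIF4631. It was thus higher in both deletion libraries than in the other pair, and its log2 ratio within the deletion pair was 2.07 (2.03 to 2.11). DDR2, a small stress-induced protein, had 109, 170, 140 and 422 CPM and a log2 ratio of 1.59 (1.52 to 1.67). Of 46 measured genes under Msn2 and Msn4, 10 were higher and 0 lower by the 2-fold rule, and 13 and 0 by the 1.5-fold rule, with a list median of 0.33. Besides HSP12 and DDR2, these 10 were PHM7, at 1.38, the transketolase TKL2, the phosphogluconolactonase SOL4, the chaperone genes HSP31 and HSP26, RTN2, the catalase CTT1 and the cell wall gene SPI1, at ratios down to 1.02. Apart from HSP12, DDR2, PHM7, HSP26 and CTT1, these names were chosen after their values were seen. HSP26 had 841, 1323, 552 and 1152 CPM, so that the library labelled wild-type TIF4631 was higher still and the deletion control the lowest. CTT1 had 43.4, 90.9, 84.7 and 172 CPM, and the library labelled wild-type TIF4631 also passed the 2-fold rule over its control, at 1.07.

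The 3 further stress genes past the 1.5-fold rule were MSC1 at 0.92, GRE1 at 0.82 and TFS1 at 0.67, and 33 of the 46 passed neither rule. Among the latter, the trehalose genes TPS1 and TPS2 stood at 0.22 and 0.35, and HXK1 and GLK1, the sugar kinases, at 0.01 and -0.04. HSP104, the disaggregase, stood at 0.11, and GAC1 and PGM2, of glycogen and galactose metabolism, at -0.35 and -0.30. These too were named after their values were seen. In the library labelled wild-type TIF4631 the same list had a median of 0.43 over its control. AGGGG was in the windows of 37 of the 46 genes, or 80.43%, and of 9 of the 10 past the 2-fold rule. As the list is of genes under Msn2 and Msn4, a high share of their element is partly built in. Of all ORFs kept 24.06% held AGGGG, and it was in 26 of 52 windows of the higher ORFs.

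Chaperones under Hsf1 stayed near their control levels. Of 26 such genes, HSP26, also on the stress list, was the only one past either rule, at 1.06, and the mitochondrial chaperonin HSP60 stood at -0.55. None of 24 genes of the unfolded protein response and folding in the endoplasmic reticulum passed the 1.5-fold rule, with KAR2, the luminal Hsp70, at -0.51. Among 33 genes for antioxidant and nitric oxide defence, the peroxisomal catalase CTA1 was higher at 1.33, from 31 and 116 counts, beside CTT1. YHB1, the flavohaemoglobin that oxidises nitric oxide, had 2897, 3439, 2023 and 713 CPM and was lower at -1.51 (-1.54 to -1.47).

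Pheromone and mating genes held 2 ORFs past the 2-fold rule. AGA1, the anchor subunit of the a-agglutinin, which is made in response to pheromone in both mating types, had 92.6, 65.0, 69.8 and 296 CPM and a log2 ratio of 2.08 (1.97 to 2.19). SST2, which turns off the pheromone-activated G protein, had 69.8, 50.6, 58.4 and 146 CPM and a log2 ratio of 1.32 (1.20 to 1.45). In both the TIF4631 library was above the other 3, which lay within a narrower range. SAG1, the alpha-agglutinin, stood at 0.79, whereas STE3 and MF(ALPHA)2, a pheromone gene, stood at -0.07 and -0.19. Of 24 measured genes 4 were higher and 0 lower by the 1.5-fold rule, with a median of 0.20. TGAAAC, the core of the pheromone response element, was in 16 of the 24 windows and in 18.99% of all.

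Among 40 cell wall genes, KDX1, a kinase-like gene under the cell wall integrity pathway, was higher by the 2-fold rule at 1.07, from 59 and 183 counts. By the 1.5-fold rule 6 of the 40 were higher and 1 lower, against 3.6% and 4.94% of all ORFs kept. SPS100 stood at 0.92 and PRM5 at 0.86. The exporter gene AQR1 had 15, 15, 25 and 191 counts and met the filter only through the TIF4631 library. It stood at 2.36 with a wide interval (1.78 to 3.04), and the transporters PDR12 and PDR15 stood at 0.95 and 0.73. NCE102, an eisosome protein, was the higher ORF with one of the highest counts, at 10062 and 32852, and had a log2 ratio of 1.15 (1.12 to 1.19). It was named after its values were seen. The ORFs YDR222W and YNL194C stood at 2.23 and 1.74, and HBT1, a gene for cell shape during mating, at 1.44.

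Iron genes split. FIT3, a cell wall mannoprotein that helps to take up siderophore iron, had 68.9, 87.1, 20.3 and 105 CPM in the order wild-type control, library labelled wild-type TIF4631, deletion control and deletion with TIF4631. FIT2, of the same family, had 24.6, 45.4, 7.12 and 27.8 CPM. Both were lowest in the deletion control, so their log2 ratios of 2.36 (2.17 to 2.57) and 1.96 (1.62 to 2.32) measured levels near those of the wild-type libraries against a low control. The high-affinity permease FTR1 had 314, 307, 159 and 86.1 CPM and stood at -0.88, and the siderophore transporters SIT1 and ARN1 stood at 0.62 and 0.60. FTR1, SIT1 and ARN1 were named after their values were seen. Of 26 measured iron genes, 2 were higher and 1 lower by the 2-fold rule, and 6 and 3 by the 1.5-fold rule. The 1 lower by the 2-fold rule was VHT1, the biotin transporter, at -1.79, which is also counted among the biotin genes below. Of the 11 zinc genes, the low-affinity transporter ZRT2 was lower by the 1.5-fold rule at -0.93, and ZRT1 stood at -0.54.

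Of 7 biotin genes, 5 were lower and 0 higher by the 2-fold rule, the largest share of lower members by that rule among the lists. Saccharomyces takes up biotin through Vht1, takes up its precursor 7-keto 8-aminopelargonate through Bio5, and converts the precursor with Bio3, Bio4 and Bio2. BIO2, the biotin synthase, had 160, 938, 193 and 31.2 CPM in the order above and a log2 ratio of -2.63 (-2.77 to -2.49). BIO3, BIO5 and BIO4, neighbours on chromosome XIV between 731618 and 735733, stood at -2.66, -2.41 and -1.81, from 221, 70 and 249 counts in the deletion control and 51, 19 and 104 with TIF4631. VHT1 had 223, 1172, 226 and 65.4 CPM and stood at -1.79 (-1.90 to -1.69). For all 5 genes the deletion control was close to the wild-type control, the TIF4631 library of the deletion strain was the lowest and the library labelled wild-type TIF4631 was the highest.

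The biotin ligase BPL1 stood at -0.52 and VHR1, the activator of VHT1 and BIO5, at 0.33. Summed over the list of 7, levels were 564, 3494, 593 and 215 CPM. A Vhr1 element was found in the windows of 2 of the 7 genes, BIO5 and VHT1, and in 1.464% of all, and TGACTC was in 4 of the 7. The BIO5 window, at 733404 to 733703 on chromosome XIV, lies within the ORF of BIO4, at 733356 to 734069. YJR154W, an uncharacterised ORF, had 97, 1790, 77 and 27 counts, a like order of the libraries, and stood at -2.05 (-2.75 to -1.42).

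Of 23 genes for making and taking up inositol and for phospholipid synthesis, 2 were lower by the 2-fold rule and 3 by the 1.5-fold rule, with 0 higher by either. INO1 had 4272 CPM in the wild-type control, 13667 CPM in the library labelled wild-type TIF4631, 2602 CPM in the deletion control and 1046 CPM in the deletion library with TIF4631. The TIF4631 library of the deletion strain was the lowest and the log2 ratio was -1.31 (-1.34 to -1.29). INO1 lies next to VPS35 on chromosome X, at 134332 to 135933, and both libraries of the pair carry the deletion. ITR1, the main inositol transporter, had 1581, 2397, 1395 and 678 CPM and stood at -1.04 (-1.08 to -1.01), and OPI3, a phospholipid methyltransferase, lay just outside the rule, with an interval of -1.04 to -0.95.

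Of the 23 genes, 17 lay below and 0 above 0 beyond counting error. The TIF4631 library was the lowest of 4 for 19 and the highest for 0, against 36.94% and 37.68% of all ORFs kept. The list median was -0.32, and 20 genes did not pass the 1.5-fold rule. CHO1 and CHO2, the phosphatidylserine synthase and the first methyltransferase, stood at -0.43 and -0.54, and the activators INO2 and INO4 at -0.51 and -0.32, from 244 and 266 counts in the deletion control. The repressor OPI1 stood at -0.09 (-0.23 to 0.05). CHO1, CHO2, INO2, INO4 and OPI1 were named after their values were seen. CATGTG was in the windows of 14 of the 23 genes and in 8.983% of all. In the library labelled wild-type TIF4631 the median of the list was 0.20 over its control.

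Sterol and fatty acid genes lay closer to their controls. Of 26 ergosterol genes, 2 were lower by the 1.5-fold rule, against 4.94% of all ORFs kept, and the median was -0.21. The 2 were NCP1, the P450 reductase, at -0.87 and ERG13, the HMG-CoA synthase, at -0.64. Among 12 fatty acid genes the desaturase OLE1 stood at -0.59 and FAS2, a synthase subunit, at -0.54, whereas ACS1, an acetyl-CoA synthetase, stood at 0.77.

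Of 33 sulfur assimilation and methionine genes, 14 were lower and 0 higher by the 1.5-fold rule. SAM2, an S-adenosylmethionine synthetase, had 2110, 3844, 1790 and 782 CPM and stood at -1.19 (-1.23 to -1.16), and was the only gene of 33 past the 2-fold rule. The list median was -0.52, and the TIF4631 library was the lowest of 4 for 29, against 36.94% of all ORFs kept. MHT1 and MMP1, for use and uptake of S-methylmethionine, stood at -0.96 and -0.92, and MET6, the methionine synthase that uses methyl-tetrahydrofolate, had 4521, 6153, 4348 and 2560 CPM and stood at -0.76. Not every member was low, and MET31, an activator, and STR2 stood at 0.38 and 0.21. MET6, MET31 and STR2 were named after their values were seen. The summed level was 16074 CPM in the deletion control and 10574 CPM with TIF4631. CACGTG, the Cbf1 core, was in 18 and TGTGGC, the core of Met31 and Met32, in 20 of the 33 windows, against 4.692% and 8.943% of all.

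**Figure D4:**
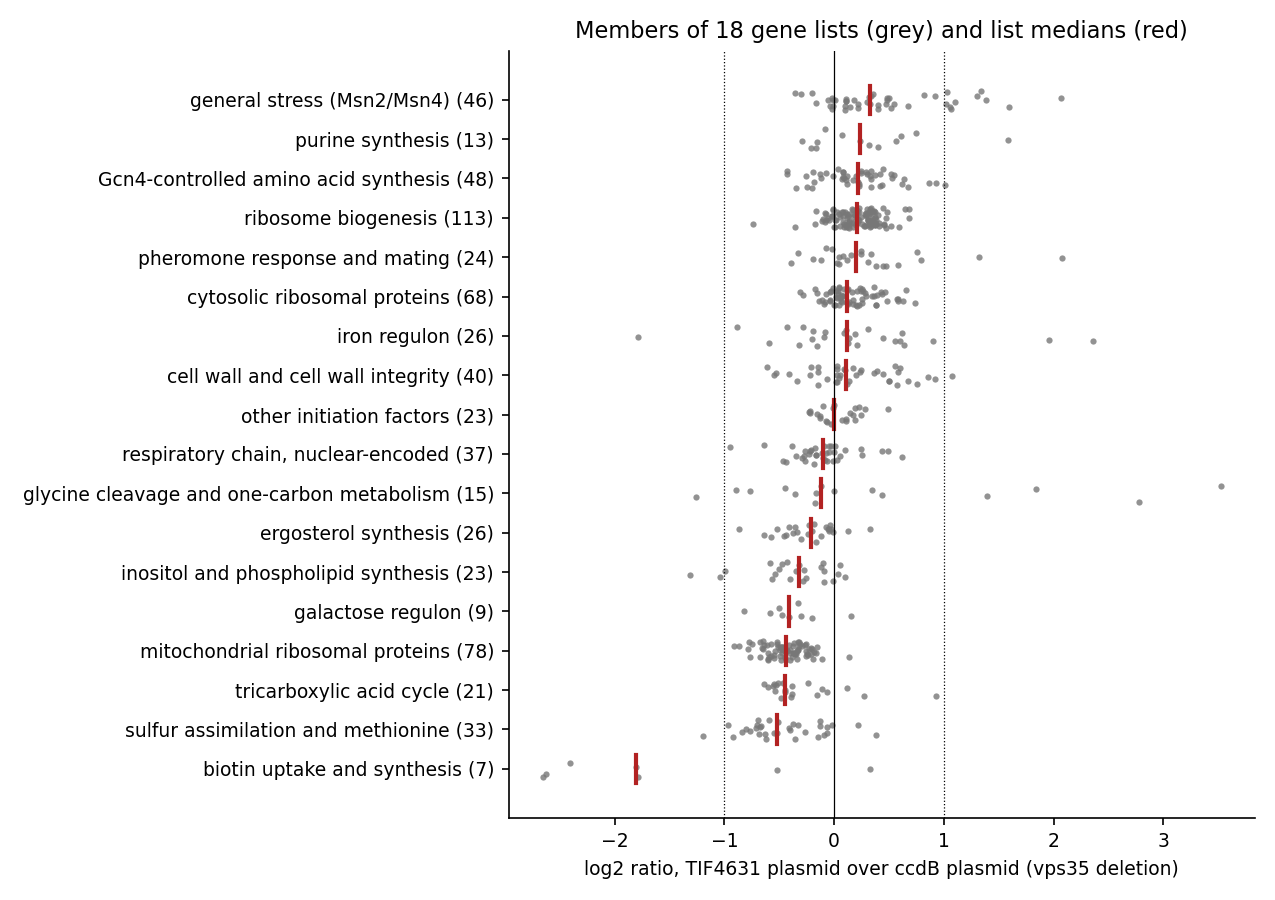
Log2 ratio (x axis, TIF4631 plasmid over ccdB plasmid in the deletion strain) of each measured gene of 18 lists (rows, with the number of genes in parentheses); red bars are list medians and dotted lines mark 2-fold. Medians run from -1.81 for biotin genes to 0.33 for general stress genes, and the glycine list holds 4 genes far above a median of -0.12.

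Genes for mitochondrial translation and the tricarboxylic acid cycle had medians below 0, mostly from ratios within 1.5-fold. Of 78 mitochondrial ribosomal protein genes, 76 lay below 0 beyond counting error. The TIF4631 library was the lowest of 4 for 77, against 36.94% of all ORFs kept. Their median was -0.44, and 17 were lower and 0 higher by the 1.5-fold rule, with MRP7 at -0.92, IMG2 at -0.86 and MRPL51 at -0.79. In the library labelled wild-type TIF4631 the median was -0.05 over its control. Of 21 genes of the tricarboxylic acid cycle the median was -0.44, with the citrate synthase CIT1 at -0.64 and the dehydrogenase subunit SDH1 at -0.61. The TIF4631 library was the lowest of 4 for 18 of the 21, against the same 36.94% of all. By the 1.5-fold rule 2 of them were lower and 1 was higher. The higher one was MDH2, the cytosolic malate dehydrogenase of gluconeogenesis, at 0.93 (0.86 to 0.99), at 207 and 392 CPM. Among 37 nuclear genes of the respiratory chain the median was -0.10, and CYC1, cytochrome c, had 547, 573, 510 and 264 CPM and stood at -0.95 (-1.01 to -0.89).

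Of 9 measured galactose genes, which report the inducer, 0 passed the 2-fold rule and 1, GCY1, was lower by the 1.5-fold rule, with a list median of -0.41. GAL1, the galactokinase, had 27659, 31079, 27400 and 20612 CPM and a log2 ratio of -0.41 (-0.42 to -0.40), and GAL10 stood at -0.47 and GAL7 at -0.33. The activator GAL4 stood at -0.50 (-0.78 to -0.22), GAL3 at -0.58, the repressor GAL80 at -0.20 and GCY1 at -0.82. The TIF4631 library was the lowest of 4 for 8 of the 9 measured genes of the list, all but MTH1, against 36.94% of all ORFs kept. GAL1 was the ORF with the highest count in the deletion control, and the pyruvate decarboxylase gene PDC1 in the library with TIF4631.

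Among 15 measured phosphate genes the transporters PHO89 and PHO84 were lower, and PHM8, a phosphatase, was higher at 1.06. PHO84 had 62.7, 23.0, 85.3 and 37.0 CPM and stood at -1.20 (-1.35 to -1.06). Both libraries with the TIF4631 label lay below their controls, and TIF4631 was raised in only 1 of them. A cause was not tested. PHO89 had 16.7, 10.3, 38.9 and 13.6 CPM, high in the deletion control alone, and stood at -1.52 (-1.75 to -1.28). ADH6, an NADPH-dependent alcohol dehydrogenase, and OPT2, an oligopeptide transporter family member, completed the named lower ORFs at -1.05 and -1.31.

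The sorting machinery that VPS35 belongs to stayed near its control levels. None of 19 genes of the retromer and endosomal recycling passed the 1.5-fold rule, and their median was 0.00. PEP1, which encodes the receptor Vps10, stood at -0.49 (-0.55 to -0.44) and SNX41, a sorting nexin, at 0.26. None of 11 vacuolar hydrolase genes passed it, with the protease gene PEP4 at 0.33, and none of 33 proteasome genes, whose median was -0.10. Among 26 autophagy genes 2 were lower by the 1.5-fold rule, against 4.94% of all ORFs kept.

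Median ratios differed little with position, length and level. Those of the nuclear chromosomes ran from -0.09 on chromosomes I and VI to 0.05 on chromosome XII. The mitochondrial chromosome, with 6 ORFs, stood at -0.34, and at -1.13 with no filter on low counts. Over windows of 25 neighbouring ORFs the highest median was 0.35, on chromosome IX from 140613 to 193195, and the lowest was -0.28, on chromosome XIV from 694361 to 748766, a window that holds BIO3, BIO4, BIO5 and also AGA1. With ORFs split into 4 equal classes by length, class medians lay between -0.01 and 0.03, and with 4 classes by RPKM between -0.03 and 0.03.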

How the data were processed

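Ribosome footprints of 4 libraries, 1 per combination of strain and plasmid, were analysed from tables of 5441 ORFs. The deposited counts are whole reads per ORF, named total reads per the file headers, and the deposited RPKM, per the file headers, was scaled by the authors to ORF length and dataset reads. The sacCer3 build, Bowtie2, cutadapt 1.3 and CASAVA are named, per the submitters' processing notes. The counter, the annotation and the treatment of reads with several matches were not given in the sources used here, so genes with close copies are uncertain. RPKM was used only for levels per length.

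ORFs with at least 200 summed counts were kept, which left 4997. Counts were scaled with TMM factors of edgeR 4.0.16 over the 4 libraries (0.997, 0.971, 1.01 and 1.02), and log2 ratios were taken after adding 0.5 counts, with 95% conditional binomial (Clopper-Pearson) intervals. With 1 library per group no test was possible, and differences compare libraries. The interval method was checked on simulated counts with counting error alone, so the check does not cover the wider spread seen in the data. Without molecular identifiers, PCR copies of a molecule cannot be set apart, so intervals and floors cover counting error only. Of the ORFs, 5438 matched a RefSeq R64 locus tag. Motifs were searched on both strands of the windows, with overlaps counted. Where a list was chosen by a regulator or its pathway, a high share of that regulator's motif is partly built in.

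The comparison, the 42 gene lists and the rules were chosen with earlier results of these data known. Named genes are TIF4631, VPS35 and URA3 with the chromosomal neighbours of TIF4631 and URA3, the 15 highest and 15 lowest ORFs past the 2-fold rule by the interval bound nearest 0, the 3 largest ratios of each list, and all members of lists of at most 10. Others are said to be named after their values were seen. Results for 1 gene and 1 promoter window are not reported here. Alternatives were total-count scaling, DESeq2 1.42.0 size factors, totals without the 50 most abundant ORFs, TMM over the 2 deletion libraries, no filter, a filter of 1000 counts and 5 counts added. Scripts ran in Python 3.11.15 (scipy 1.17.1, pandas 2.3.3, numpy 2.4.6, matplotlib 3.10.9) and R 4.3.3.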

Additional observations from a re-analysis of the deposited data

Results flagged for a closer look

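For 8 ORFs the difference between the TIF4631 and the ccdB library passed the 2-fold rule in both strains, in opposite directions. They were lower in the vps35 deletion pair and higher in the library labelled wild-type TIF4631 than in the wild-type control. The difference between the strains was not tested, and TIF4631 was not raised in the library labelled wild-type TIF4631. The log2 ratio of the deletion pair minus that of the wild-type pair was -8.11 for BIO5, from -2.41 and 5.71. It was -7.18 for BIO3, -6.10 for BIO4, -5.18 for BIO2 and -4.18 for the biotin transporter VHT1. It was -6.25 for YJR154W, -2.57 for the subtelomeric ORF YEL073C, and -2.99 for INO1, from -1.31 and 1.68.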

How the results depend on the processing

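Among the counts past the rules and the ratio of TIF4631, the count of ORFs higher by the 2-fold rule moved by over 1.5 times under 1 of 7 alternatives, to 33 against 53, with a filter of 1000 summed counts. That filter tests fewer ORFs, 4371 in place of 4997. Across the alternatives the 2-fold counts ran from 33 to 66 higher and 22 to 37 lower, the 1.5-fold counts from 130 to 202 higher and 190 to 263 lower, and the log2 ratio of TIF4631 from 3.83 to 3.85. Of the 81 ORFs past the 2-fold rule, 80 or 81 also passed under each other scaling, 81 with no filter, which added others for 103 in all, and 78 with 5 counts added. The median of all ORFs lay between -0.006 and 0.019 under every scaling tried. Of 1506 further values for genes, lists and chromosomes, 1498 stayed within a limit set by counting error and 8 moved beyond it. For a gene the limit was its interval, and for a list or chromosome median it was the typical counting error of a single member. A change of sign was counted only for genes past the 2-fold rule and for medians not close to 0, and 0 were found. With no filter the list median of phosphate genes was -0.23 and that of the mitochondrial chromosome -1.13. The values of low-count genes such as CHA1, AQR1 and KDX1 rest on few reads and have wide intervals. No replicate could be left out, as each group has 1 library. No paired analysis was possible because each group has a single library.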

Other observations

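Further lists for nitrogen supply and carbon use also held ORFs past the 1.5-fold rule, some of them already given above. Among 16 ammonium and nitrogen genes, 4 were lower and 1 higher. The ammonium permease gene MEP2 stood at 0.72 (0.48 to 0.97), whereas its paralogues MEP3 and MEP1 stood at -0.66 and -0.65 and the glutamate dehydrogenase GDH1 at -0.64. DAL3, for allantoin use, stood at -0.72 from 54 and 48 counts. Of 12 genes for the glyoxylate shunt and gluconeogenesis, JEN1, the lactate permease, stood at -0.83 and ICL1, the isocitrate lyase, at -0.77, both below 0, beside MDH2 above it at 0.93. Among 17 glycolysis and fermentation genes, ADH5 was the lower one at -0.82, and HXK2 stood at -0.45 and ADH3 at -0.41. Of 17 amino acid permeases, 3 were lower and 0 higher by the 1.5-fold rule, against 4.94% and 3.6% of all ORFs kept. MMP1 at -0.92 and SAM3 at -0.70 led these and were also counted among the sulfur genes above. MEP1 and GDH1 were named after their values were seen.

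Of the higher ORFs on no list, 3 are given here. HXT2, a hexose transporter, had 194, 184, 143 and 325 CPM in the wild-type control, the library labelled wild-type TIF4631, the deletion control and the deletion library with TIF4631, and a log2 ratio of 1.18 (1.10 to 1.26). MAE1, the malic enzyme, had 46.3, 44.8, 40.9 and 106 CPM and stood at 1.38 (1.23 to 1.53). YRO2, a membrane protein of the same family as the heat shock protein Hsp30, had 386, 459, 263 and 568 CPM and stood at 1.11 (1.05 to 1.17). In each the deletion library with TIF4631 was the highest of 4. HXT2, MAE1 and YRO2 were named after their values were seen.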
